A study of Mus musculus with 5 samples.

Results

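The genes described here encode the MHC class II antigen presentation machinery of the mouse: Cd74, H2-Aa, H2-Ab1, H2-Eb1, H2-DMa, H2-DMb1, H2-DMb2, H2-Oa, H2-Ob and Ciita. They were taken by symbol and make up 10 of the 49927 gene IDs in the deposited tables, in which 17352 symbols had a value above 0 in at least 1 library. Each of the 10 had a value above 0 in at least 1 of the 5 libraries. They were measured by RNA sequencing of regulatory T cells (Tregs), the CD4 T cells that restrain immune responses under the transcription factor Foxp3.

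All mice were C57BL/6 and carried Foxp3Cre, which places the Cre recombinase in cells that express Foxp3. The groups were adipose Tregs of 10-month Med23fl/fl;Foxp3Cre mice (the library labelled Med23 KO), adipose Tregs of 10-month Foxp3Cre mice, adipose Tregs of 4-month obese Foxp3Cre mice, adipose Tregs of 4-month Foxp3Cre mice, and lymph node (LN) Tregs of 4-month Foxp3Cre mice. The title of the obese library holds HFD, which commonly stands for high-fat diet. The other 4-month adipose library is termed lean below, for want of any label of obesity. Floxed Med23, which encodes a subunit of the Mediator complex, would be deleted only in cells that had expressed Foxp3, so that any other cell in the sort would keep it. The sources used here give neither the number of mice behind each library nor the sort gate. With 1 library per group there is no replicate, no SD and no test between conditions, so every difference below is one between libraries.

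MHC class II molecules are pairs of an alpha and a beta chain that carry peptides from endosomes to the cell surface, where the receptors of CD4 T cells read them. The invariant chain, encoded by Cd74, fills the peptide groove of new class II molecules, the DM heterodimer removes its last fragment and helps to load peptide, and the DO heterodimer holds DM back. Ciita, the class II transactivator, switches these genes on by docking on factors bound at the X and Y boxes of their promoters. In mice, B cells, dendritic cells and many macrophages express class II strongly, whereas mouse T cells are known for little or none.

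The promoter sequences show what the genes share outside the expression data. The RefSeq table of GRCm38.p6 held 8 promoter windows for 7 of the 10 genes, each running from 250 bases before to 50 bases after an annotated start. All 7 genes had a window with the letters GATTGG, the core of the Y box. H2-DMa also had a window without them, and in its window with them they stood 193 bases before the start. In the other genes they stood 38 to 85 bases before it. The 6 stretches below are shown because 4 of them also hold the letters ATGATG, from the X box, ahead of it, whereas those of H2-Aa and H2-Oa do not. They are written 5′ to 3′ on the gene's strand, with both sets of letters in capitals.
H2-Eb1 (chr17:34305757-34305822, plus strand): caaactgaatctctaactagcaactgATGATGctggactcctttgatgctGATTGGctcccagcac
H2-DMb1 (chr17:34153079-34153144, plus strand): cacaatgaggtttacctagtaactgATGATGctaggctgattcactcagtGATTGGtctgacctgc
H2-DMb2 (chr17:34145108-34145173, plus strand): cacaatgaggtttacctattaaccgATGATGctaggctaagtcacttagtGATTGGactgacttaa
H2-Ob (chr17:34238797-34238862, plus strand): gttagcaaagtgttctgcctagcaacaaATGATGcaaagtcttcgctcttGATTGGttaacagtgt
H2-Aa (chr17:34287857-34287922, minus strand): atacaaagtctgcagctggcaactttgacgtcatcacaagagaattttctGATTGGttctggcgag
H2-Oa (chr17:34092285-34092350, plus strand): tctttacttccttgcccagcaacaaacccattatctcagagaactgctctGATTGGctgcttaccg

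Both motifs were searched on both strands, and a pair was counted only where they did not overlap, although as spelled they can share a base. ATGATG stood in 11.2% of the 32851 promoter windows of the table and GATTGG in 16.1%. ATGATG followed on the same strand by GATTGG, with at most 30 bases between them, stood in 32 windows (0.0974%), among them those of H2-Eb1, H2-DMb1, H2-DMb2 and H2-Ob. The X box letters were chosen after the promoters of these genes had been read, so the matches describe the sequences and no more. Between the motifs lay 18 bases in H2-Eb1, 19 in H2-DMb1, 19 in H2-DMb2 and 16 in H2-Ob. The H2-DMb1 and H2-DMb2 stretches are alike over most of their length, although the levels of the pair differed between libraries as given below.

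Reads behind the listed values numbered 4595046 in the library labelled Med23 KO and 7496496 to 9694474 in the other 4 libraries. Med23 was at 15.5 CPM (counts scaled to 1000000 listed reads per library) in the library labelled Med23 KO, against 6.32 CPM in 10-month Foxp3Cre, so the targeted gene goes against the label and its deletion was not seen at the level of the whole gene. It was at 33.3 CPM in obese, 46.8 in lean and 6.40 in LN. Whether the labels of the 10-month libraries were exchanged was not tested, and this bears on each comparison below that uses either of them. All 12 Treg and CD4 T cell markers were above 0 in all 5 libraries, and Foxp3 was at 52.5 CPM in LN and 155 to 216 CPM in the adipose libraries. The libraries also split by sex-linked genes. Ddx3y, on the Y chromosome, was at 562 CPM in obese and 560 CPM in lean and listed at 0 in the other 3, and Xist, expressed from the inactive X chromosome, was at 3.60 CPM in obese, listed at 0 in lean, and at 228 to 602 CPM in the others. Gapdh, a glycolytic enzyme gene that most cells use, was at 10.7 CPM in obese and 1.05 CPM in lean, against 548 to 979 CPM in the others. Tissue, obesity or age therefore cannot be told apart from this split where a comparison sets obese or lean against 1 of the other 3 libraries. A value under 1 scaled count is listed as 0 in the deposited tables, so a gene given here as listed at 0 may have had a few reads. For genes other than the 10, a value listed at 0 was not told apart from no value, and both are given as listed at 0.

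Cd74 and the classical chain genes H2-Aa, H2-Ab1 and H2-Eb1 stood highest in the obese library, with lean next. Together the 10 genes took 0.0439% of listed reads in the library labelled Med23 KO, 0.0627% in 10-month Foxp3Cre, 0.861% in obese, 0.182% in lean and 0.0537% in LN. H2-Aa, the alpha chain of the I-A molecule, was at 53.8 CPM in the library labelled Med23 KO, 77.2 in 10-month Foxp3Cre, 2416 in obese, 456 in lean and 46.3 in LN. Obese and lean lay apart from the other 3 libraries, and the counting intervals (exact 95%, counting error only) of the library labelled Med23 KO, 47.3 to 60.9 CPM, and LN, 42.1 to 50.8 CPM, overlapped. H2-Ab1, the beta chain that pairs with H2-Aa, was at 8.05 CPM in the library labelled Med23 KO, 70.7 in 10-month Foxp3Cre, 1305 in obese, 296 in lean and 18.4 in LN. It was lowest in the library labelled Med23 KO, where the value rests on 37 reads. H2-Eb1, the beta chain of the I-E molecule, was at 24.4 CPM in the library labelled Med23 KO, 28.0 in 10-month Foxp3Cre, 785 in obese, 214 in lean and 11.6 in LN. The intervals of the library labelled Med23 KO and 10-month Foxp3Cre overlapped (20.1 to 29.3 and 24.7 to 31.5 CPM), and LN was lowest. C57BL/6 mice are known to lack the alpha chain that H2-Eb1 would pair with. H2-Ea-ps, the annotated remnant of the gene for that chain, was at 4.87 CPM in 10-month Foxp3Cre. In the other libraries H2-Ea-ps was listed at 0 or had no value.

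Cd74, the invariant chain, was at 195 CPM in the library labelled Med23 KO, 415 in 10-month Foxp3Cre, 3859 in obese, 783 in lean and 312 in LN. No counting intervals of Cd74 overlapped between libraries, and its order was obese, lean, 10-month Foxp3Cre, LN and the library labelled Med23 KO. In these bulk samples, fewer cells that express a gene and less RNA of it per cell cannot be told apart.

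The DM and DO genes did not share the order of the classical chains. H2-DMa, the alpha chain of DM, was listed at 0 in the library labelled Med23 KO and stood at 7.15 CPM in 10-month Foxp3Cre, 133 in obese, 21.2 in lean and 78.6 in LN. LN stood above lean for this gene, unlike for the classical chains. H2-DMb1, a beta chain of DM, was at 19.4 CPM in the library labelled Med23 KO, 4.25 in 10-month Foxp3Cre, 72.0 in obese, 44.1 in lean and 4.33 in LN. Its levels in 10-month Foxp3Cre and LN differed by less than the counting error. H2-DMb2, the other beta chain gene, was at 57.7 CPM in the library labelled Med23 KO, 5.08 in 10-month Foxp3Cre and 1.29 in lean, listed at 0 in obese, and at 12.8 in LN. The library that held the most class II reads thus had no listed H2-DMb2.

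H2-Oa, the alpha chain of DO, was at 10.4 CPM in the library labelled Med23 KO, 11.8 in 10-month Foxp3Cre and 9.47 in obese, listed at 0 in lean, and at 41.8 in LN. The intervals of the first 3 overlapped, and LN was highest. H2-Ob, the beta chain of DO, was at 70.3 CPM in the library labelled Med23 KO, 7.98 in 10-month Foxp3Cre, 22.7 in obese, 8.31 in lean and 12.2 in LN. It was highest in the library labelled Med23 KO, where it exceeded H2-Aa in reads (323 against 247). Ciita was listed above 0 in obese alone, at 4.27 CPM from 32 reads, was listed at 0 in LN, and had no value in the other 3 libraries. Some exons overlap those of other genes in the GENCODE M21 annotation, and no source used here gives the strand setting of the counting. These are H2-DMa with Brd2, H2-Oa with BC051537 and Ciita with Dexi, each on the opposite strand, and Cd74 with Mir5107 on the same strand. Brd2, a chromatin reader gene, was at 60.3 to 118 CPM in the 5 libraries, highest in lean, and Dexi was highest in LN at 26.8 CPM.

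**Figure D1:**
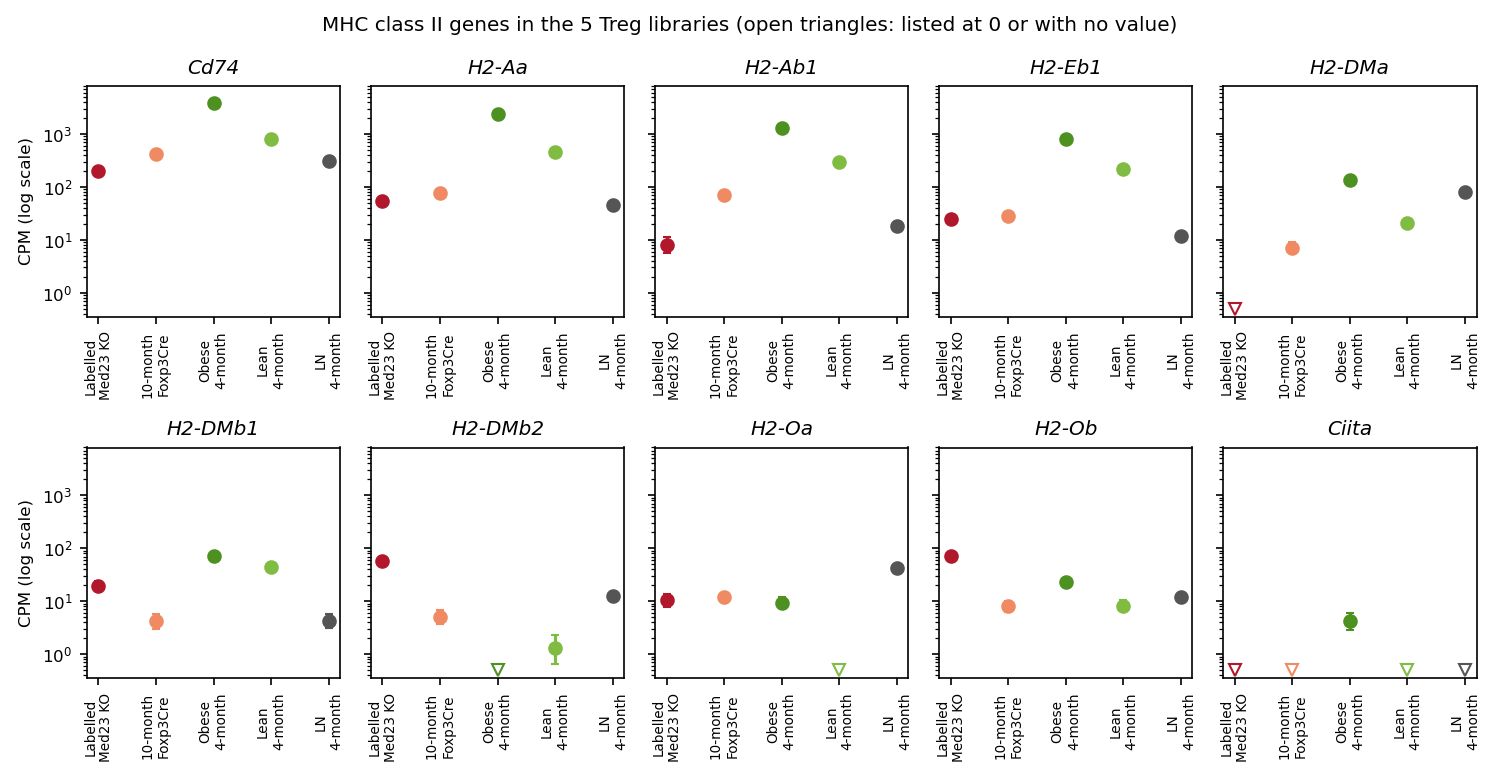
Level of each of the 10 genes in the 5 libraries, in CPM on a log axis, with exact 95% counting intervals as bars and open symbols at the bottom for values listed at 0 or with no value. Cd74, H2-Aa, H2-Ab1 and H2-Eb1 are highest in obese and next in lean, whereas H2-Oa is highest in LN and H2-DMb2 and H2-Ob are highest in the library labelled Med23 KO.

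Lean adipose Tregs had more reads of the classical chains and Cd74 than LN Tregs and fewer of several DM and DO genes. A gene counted as measured if either library had a value of 1 or more. Of 9 genes measured, 5 were higher in lean by 2-fold or more and 3 were lower by as much, with 1 added to each value. The background over all 13502 measured genes was 37.6% higher and 32.1% lower, and the count of lower genes is near it. The median log2 ratio of the 9 genes was 1.19, against 0.14 over all measured genes. On the scaled counts of that deposited table, H2-Eb1 was at 203 in lean and 12.1 in LN, a ratio of 16.8 (counting interval 13.9 to 20.5). H2-Ab1 was 14.6-fold higher in lean (12.5 to 17.1), H2-Aa 8.92-fold (8.09 to 9.85), H2-DMb1 9.23-fold (6.70 to 13.0) and Cd74 2.28-fold (2.18 to 2.38). The invariant chain therefore differed less than the chains it binds. H2-DMa was 4.09-fold lower in lean (3.48 to 4.84), H2-DMb2 was 11.0-fold lower (5.92 to 22.5), and H2-Oa was listed at 0 in lean, against 43.9 scaled counts in LN. H2-Ob was 1.62-fold lower (1.19 to 2.20). The authors' deposited table marks 8 of the genes as changed, all but H2-Ob and Ciita. The mark compares a pair of libraries and not conditions.

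Of the 3 adipose libraries set against LN, obese had the highest median ratio over these genes. Of 10 genes measured, 6 were at least 2-fold higher in obese and 2 lower, beside 41.7% and 23.7% of all 14671 measured genes. The share that was lower is near that of all genes. The median log2 ratio of the 10 genes was 2.89, against 0.44 over all genes. H2-Ab1 was at 1229 scaled counts in obese and 19.5 in LN, a ratio of 63.1 (54.4 to 73.6). H2-Eb1 was 60.3-fold higher (50.1 to 73.4), H2-Aa 46.3-fold (42.2 to 51.0), H2-DMb1 14.8-fold (10.8 to 20.7) and Cd74 11.0-fold (10.6 to 11.4). As in lean, Cd74 differed from LN by less than each of the 3 classical chains. H2-DMa was 1.51-fold higher in obese (1.37 to 1.66) and H2-Ob 1.66-fold higher (1.30 to 2.11), both inside the 2-fold threshold. H2-DMb2 was listed at 0 in obese, against 13.6 scaled counts in LN, and H2-Oa was 4.96-fold lower (3.85 to 6.48). Ciita was at 4.02 scaled counts in obese and listed at 0 in LN. The authors' deposited table marks 7 genes, which leaves out H2-DMa, H2-Ob and Ciita. The lean and obese comparisons share the LN library, and so does the comparison of 10-month Foxp3Cre with LN that follows, so none of them is independent of the others.

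In 10-month Foxp3Cre adipose Tregs some of the genes were higher than in LN and others lower. On CPM, 2 of 9 genes were at least 2-fold higher in 10-month Foxp3Cre and 3 lower, beside 34.3% and 29.8% of 13140 genes. The share that was lower is near that of all genes, and the share that was higher is under it. The median log2 ratio was -0.02, against 0.09 over all genes. H2-Ab1 was 3.85-fold higher (3.26 to 4.57) and H2-Eb1 2.42-fold higher (1.94 to 3.05), whereas H2-Aa was 1.67-fold higher (1.48 to 1.88) and Cd74 1.33-fold higher (1.27 to 1.40). All 4 ratios were above 1 but under those of lean over LN. H2-DMa was 11.0-fold lower in 10-month Foxp3Cre (8.58 to 14.3), H2-Oa 3.54-fold lower (2.87 to 4.39) and H2-DMb2 2.52-fold lower (1.80 to 3.58). H2-Ob was 1.53-fold lower (1.14 to 2.06), and the ratio of H2-DMb1 was 0.981 (0.622 to 1.55). These libraries stand in separate deposited tables, and age and tissue differ together between them.

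Among the 4-month adipose libraries, obese exceeded lean in 8 of the 10 genes by at least 2-fold, beside 34.0% of 14764 measured genes. The exceptions were H2-DMb1, which was 1.63-fold higher in obese (1.43 to 1.87), and H2-DMb2, which was listed at 0 in obese, against 1.29 CPM in lean. That gene was the only one at least 2-fold lower with 1 added to each value, beside 18.6% of all genes. The median log2 ratio was 2.22, against 0.20 over all genes. The classical chains and Cd74 had similar ratios, with H2-Aa 5.30-fold higher in obese (5.12 to 5.49), Cd74 4.93-fold (4.80 to 5.06), H2-Ab1 4.41-fold (4.22 to 4.61) and H2-Eb1 3.67-fold (3.48 to 3.87). H2-DMa was 6.29-fold higher (5.36 to 7.41) and H2-Ob 2.73-fold higher (2.06 to 3.65). H2-Oa was at 9.47 CPM in obese and listed at 0 in lean, and Ciita was at 4.27 CPM in obese with no value in lean.

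The 10-month Foxp3Cre adipose library was lower than the 4-month lean adipose library in most of the group. Of 9 genes measured, 5 were at least 2-fold lower in 10-month Foxp3Cre and 2 higher, beside 32.7% and 28.4% of 13826 genes. The median log2 ratio was -1.45, against -0.17 over all genes. H2-DMb1 was 10.4-fold lower (7.52 to 14.7), H2-Eb1 7.64-fold lower (6.72 to 8.72), H2-Aa 5.90-fold lower (5.46 to 6.39), H2-Ab1 4.19-fold lower (3.85 to 4.56) and H2-DMa 2.96-fold lower (2.23 to 3.97). Cd74 was 1.89-fold lower (1.82 to 1.96), again by less than the classical chains. H2-DMb2 was 3.94-fold higher in 10-month Foxp3Cre (2.02 to 8.41), with 11 reads in lean, and H2-Oa was at 11.8 CPM in 10-month Foxp3Cre and listed at 0 in lean. The ratio of H2-Ob was 0.960 (0.686 to 1.34). Age is not separated here from the sex-linked and Gapdh split.

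The library labelled Med23 KO had fewer reads of H2-Ab1 and Cd74 than 10-month Foxp3Cre and more of H2-DMb1, H2-DMb2 and H2-Ob. The direction is drawn from a library in which Med23 goes against its label. Of 9 genes measured, 3 were at least 2-fold higher in it and 3 lower, beside 28.6% and 34.9% of 13496 genes. Both counts are near the shares of all genes. The median log2 ratio was -0.48, against -0.15 over all genes. On scaled counts H2-Ab1 was at 7.24 in the library labelled Med23 KO, against 78.4 in 10-month Foxp3Cre, 10.8-fold lower (7.78 to 15.5). Cd74 was at 175 in the library labelled Med23 KO, against 460 in 10-month Foxp3Cre, 2.63-fold lower (2.44 to 2.83), and H2-DMa was listed at 0, against 7.94 in 10-month Foxp3Cre. H2-Aa was 1.77-fold lower (1.53 to 2.06) and H2-Eb1 1.42-fold lower (1.13 to 1.78), so the partners H2-Aa and H2-Ab1 differed by unlike amounts. H2-DMb2 had 51.9 scaled counts there, against 5.64 in 10-month Foxp3Cre, 9.20-fold higher (6.76 to 12.7). H2-Ob was 7.14-fold higher (5.55 to 9.27) and H2-DMb1 3.69-fold higher (2.52 to 5.48). For H2-Oa the ratio was 0.716, and its interval reached 1.01 and so included no difference. The authors' deposited table marks 5 of the genes, namely Cd74, H2-Ab1, H2-DMb1, H2-DMb2 and H2-Ob.

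**Figure D2:**
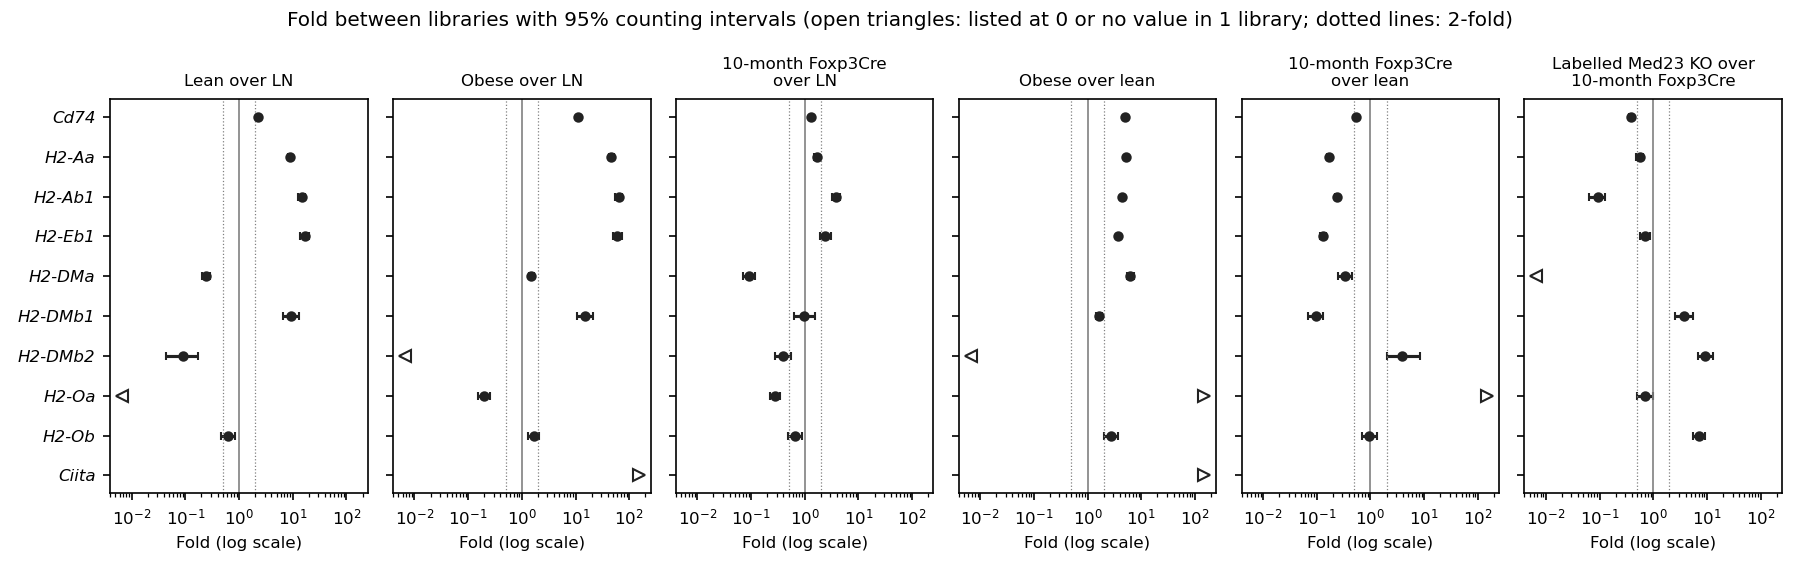
Ratio of each of the 10 genes in 6 comparisons, first-named library over the second on a log axis, with exact 95% counting intervals as bars and dotted lines at 2-fold. Open triangles mark the direction for genes listed at 0 or with no value in 1 library. Cd74, H2-Aa, H2-Ab1 and H2-Eb1 lie above 1 in obese over lean and in the 3 adipose libraries set against LN, and below 1 in 10-month Foxp3Cre over lean. They also lie below 1 for the library labelled Med23 KO over 10-month Foxp3Cre.

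The balance between the genes also differed between libraries. For each read of H2-Aa, H2-Ab1 and H2-Eb1 summed, there were 2.26 reads of Cd74 in the library labelled Med23 KO, 2.36 in 10-month Foxp3Cre, 0.856 in obese, 0.811 in lean and 4.09 in LN. The same ratio for the 5 DM and DO genes summed was 1.83 in the library labelled Med23 KO, 0.206 in 10-month Foxp3Cre, 0.0527 in obese, 0.0776 in lean and 1.96 in LN. The library labelled Med23 KO and LN, which had the lowest classical chain levels, thus had the most DM and DO reads beside them. Different genes made up these sums. In LN the largest were H2-DMa (762 reads) and H2-Oa (405) of 1451. In the library labelled Med23 KO they were H2-Ob (323) and H2-DMb2 (265) of 725, and H2-DMa was listed at 0. These ratios are of reads and are compared between libraries only, since the files hold no gene lengths. Relative to the classical chains, the DM and DO genes summed were 8.88-fold higher in the library labelled Med23 KO than in 10-month Foxp3Cre, and 25.3-fold lower in lean than in LN. Relative to Cd74 instead, they were 9.25-fold higher in the library labelled Med23 KO than in 10-month Foxp3Cre, and 5.02-fold lower in lean than in LN. H2-DMa did not share the rise in the library labelled Med23 KO, with 0 reads per classical chain read against 0.0407 in 10-month Foxp3Cre. H2-Oa was at 0.121 against 0.0672. In 10-month Foxp3Cre the DM and DO genes summed were 2.66-fold higher than in lean relative to the classical chains. Relative to Cd74 the log2 difference was -0.13, and its counting interval, -0.33 to 0.07, included no difference.

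Within the classical chains, H2-Ab1 made up 9.34% of their summed reads in the library labelled Med23 KO, 40.2% in 10-month Foxp3Cre, 29.0% in obese, 30.7% in lean and 24.1% in LN. The low share in the library labelled Med23 KO lay outside the range of the other 4. H2-Aa made up 62.4% in the library labelled Med23 KO (57.4 to 67.2%), against 43.9% in 10-month Foxp3Cre (41.5 to 46.3%). Its share in LN, 60.8% (57.1 to 64.3%), overlapped that of the library labelled Med23 KO.

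**Figure D3:**
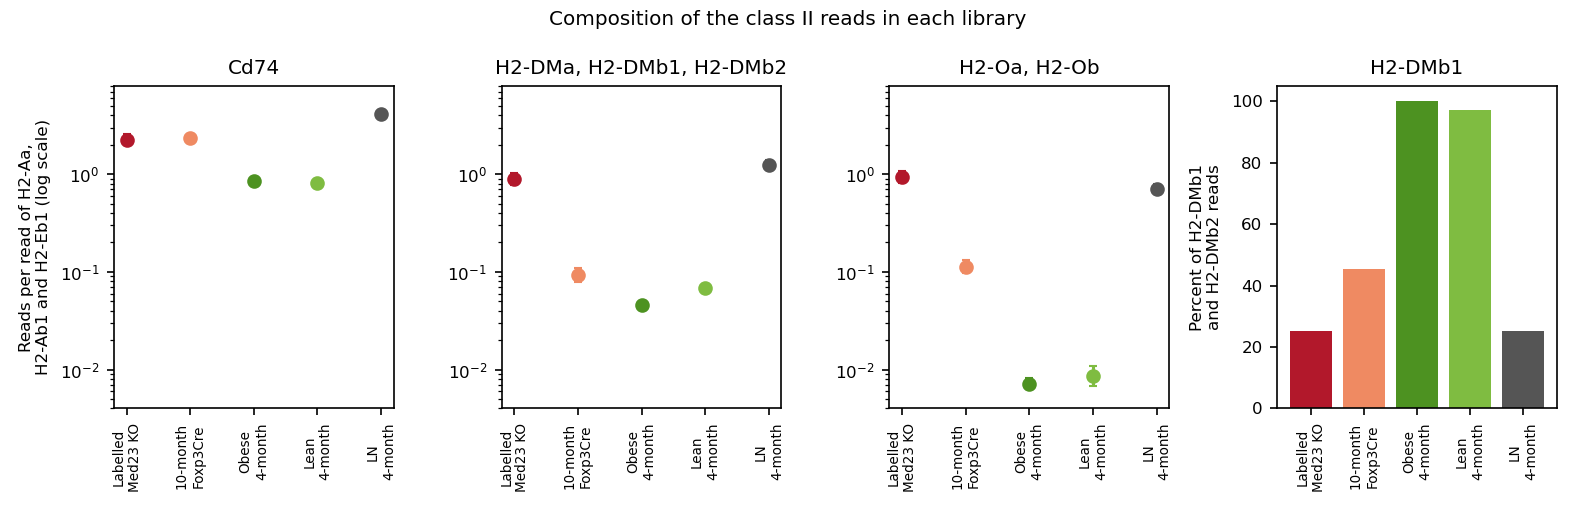
Reads of Cd74, of the DM genes and of the DO genes per read of H2-Aa, H2-Ab1 and H2-Eb1 summed, in each of the 5 libraries on a log axis, with exact 95% counting intervals as bars, and H2-DMb1 as a percentage of the reads of H2-DMb1 and H2-DMb2 on an axis from 0. The library labelled Med23 KO and LN hold the most DM and DO reads per classical chain read (1.83 and 1.96 in sum, mostly from different genes), and obese and lean the fewest (0.0527 and 0.0776), while H2-DMb1 makes up 100% of its pair in obese and 97.2% in lean.

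The DM beta chain genes changed places between libraries. H2-DMb1 made up 25.1% of the reads of the pair in the library labelled Med23 KO (89 of 354), 45.6% in 10-month Foxp3Cre (41 of 90), 100% in obese (540 of 540), 97.2% in lean (377 of 388) and 25.3% in LN (42 of 166). The exact binomial interval was widest in 10-month Foxp3Cre, at 35.0 to 56.4%. The 4-month adipose libraries were thus almost all H2-DMb1, while the library labelled Med23 KO and LN were mostly H2-DMb2. Summed, the pair was at 77.0 CPM in the library labelled Med23 KO, 9.33 in 10-month Foxp3Cre, 72.0 in obese, 45.4 in lean and 17.1 in LN. Their transcripts are 88.7% identical over 1217 aligned bases in GENCODE M21, and 26.6% of the 50-base stretches of H2-DMb1 occur in H2-DMb2. How the authors' counting split reads from such stretches is in none of the sources used here, so the levels of the single genes are uncertain.

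Markers of other cell types that express class II were present and moved with several of these results. The summed level of 17 macrophage and monocyte markers was 146 CPM in the library labelled Med23 KO (7 genes above 0), 1309 in 10-month Foxp3Cre (12), 5530 in obese (17), 1543 in lean (14) and 60.8 in LN (3). Csf1r, the receptor of the macrophage growth factor, was listed at 0 in the library labelled Med23 KO and LN and stood at 5.70 CPM in 10-month Foxp3Cre, 106 in obese and 18.7 in lean. Ccr2 and Lyz2 made up most of the 10-month Foxp3Cre sum, at 610 and 477 CPM. Both were lower in lean, at 584 and 320 CPM, so leaving them out widens the ratio between these libraries. Without them, a choice made after their values were seen, the sum was 72.7 CPM in the library labelled Med23 KO, 222 in 10-month Foxp3Cre, 3500 in obese, 639 in lean and 7.74 in LN. With and without them, the order of the 4 adipose libraries was that of the summed classical chains and Cd74, which were at 281 CPM in the library labelled Med23 KO, 591 in 10-month Foxp3Cre, 8364 in obese, 1748 in lean and 388 in LN. LN departed from that order, with more class II than the library labelled Med23 KO and fewer macrophage marker reads.

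Ratios of the sums can be set side by side. The classical chains and Cd74 were 4.78-fold higher in obese than in lean (4.70 to 4.87), beside 5.48-fold for the macrophage and monocyte markers without Ccr2 and Lyz2 (5.32 to 5.64) and 3.58-fold for the whole list (3.52 to 3.66). In 10-month Foxp3Cre the class II sum was 2.96-fold lower than in lean (2.87 to 3.05), beside 2.88-fold lower for the markers without Ccr2 and Lyz2 (2.73 to 3.02) and 1.18-fold lower for the whole list (1.15 to 1.21). Against 10-month Foxp3Cre, the class II sum of the library labelled Med23 KO was 2.10-fold lower (1.98 to 2.23), beside 3.06-fold lower (2.72 to 3.44) for the markers without Ccr2 and Lyz2 and 8.95-fold lower (8.28 to 9.69) for the whole list. Over LN, the class II sum was 21.6-fold higher in obese, 4.51-fold higher in lean and 1.52-fold higher in 10-month Foxp3Cre, beside 91.0-fold, 25.4-fold and 21.5-fold for the whole macrophage and monocyte list. Without Ccr2 and Lyz2 the markers were 452-fold, 82.6-fold and 28.7-fold higher, over 75 reads in LN. The class II ratio was the smaller one in each of these comparisons with LN. The part of these cells in the class II results was not tested.

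The 15 dendritic cell markers summed to 46.8 CPM in the library labelled Med23 KO (5 genes above 0), 40.3 in 10-month Foxp3Cre (6), 142 in obese (11), 53.0 in lean (6) and 26.6 in LN (2). Clec9a, a marker of cross-presenting dendritic cells, was listed at 0 in all 5 libraries, and Itgax, which encodes CD11c, was at 3.26 CPM in the library labelled Med23 KO and 6.27 CPM in obese and listed at 0 in the others. The 15 B cell markers summed to 476 CPM in the library labelled Med23 KO (7 genes above 0), 1037 in 10-month Foxp3Cre (4), 344 in obese (9), 241 in lean (5) and 793 in LN (9), most of it Ighm, the IgM heavy chain. Without Ighm, left out after its values were seen, the sum was 50.9 CPM in the library labelled Med23 KO, 13.9 in 10-month Foxp3Cre, 59.8 in obese, 22.9 in lean and 176 in LN. The DO genes, which are known from B cells, summed to 80.7 CPM in the library labelled Med23 KO, 19.8 in 10-month Foxp3Cre, 32.1 in obese, 8.31 in lean and 53.9 in LN. Both sums were higher in the library labelled Med23 KO than in 10-month Foxp3Cre. The ratio was 4.08 for DO (3.42 to 4.88) and 3.67 for the B cell markers without Ighm (2.95 to 4.57). The DO ratio came from H2-Ob, at 70.3 CPM in the library labelled Med23 KO against 7.98 in 10-month Foxp3Cre. H2-Oa was at 10.4 against 11.8 CPM, and the interval of its ratio included no difference. In LN, with the highest B cell sum without Ighm, H2-Oa was at 41.8 CPM and H2-Ob at 12.2. With Ighm the B cell sum went the other way, at 476 CPM in the library labelled Med23 KO against 1037 in 10-month Foxp3Cre. Ms4a1, which encodes CD20, was at 7.18 CPM in the library labelled Med23 KO and listed at 0 in the other 4. Cd79b, a chain of the B cell receptor, was listed at 0 in the library labelled Med23 KO. It was at 7.77 CPM in 10-month Foxp3Cre and 82.3 CPM in LN. The part of B cells and dendritic cells in these levels was not tested.

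**Figure D4:**
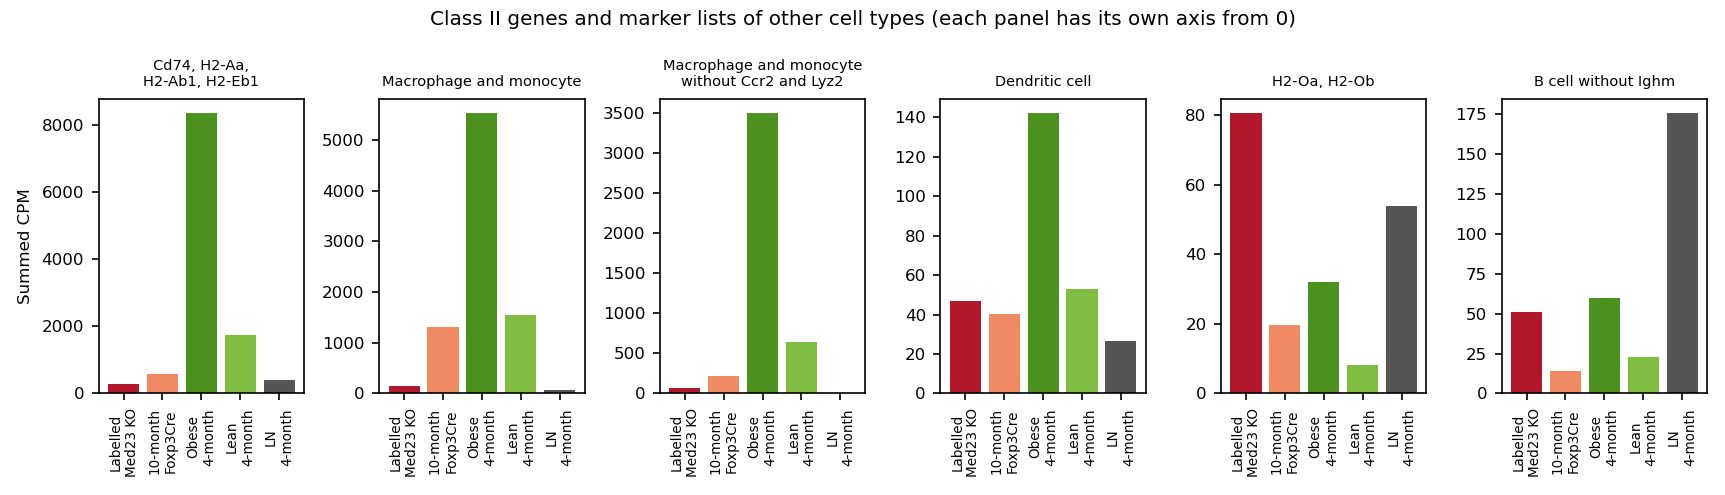
Summed CPM of Cd74, H2-Aa, H2-Ab1 and H2-Eb1, of the DO genes and of marker lists of macrophages and monocytes (also without Ccr2 and Lyz2), dendritic cells and B cells without Ighm, as bars from 0 with a separate axis per panel. Class II and both macrophage and monocyte sums are highest in obese (8364, 5530 and 3500 CPM), the DO sum is highest in the library labelled Med23 KO (80.7 CPM) and the B cell sum without Ighm in LN (176 CPM).

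Counts for gene lists are set here beside the shares of all measured genes at least 2-fold higher and lower in the same comparison. The list for peptide loading and turnover holds genes that process antigen or take class II off the surface, and also Cd63, Cd9 and Cd53. Of 12 measured, 7 were at least 2-fold higher in obese than in lean and 0 lower (34.0% and 18.6% of all genes). The median log2 ratio was 1.07, against 0.20 over all genes. The cathepsin genes Ctsb and Ctss, which encode endosomal proteases, were 5.07-fold (4.76 to 5.39) and 3.29-fold (3.06 to 3.53) higher in obese. March1, a ubiquitin ligase that removes class II from the surface, was at 18.8 CPM in obese, and March8, a related ligase, at 17.9 CPM. Both were listed at 0 or had no value in lean. In the library labelled Med23 KO 0 of 12 were higher than in 10-month Foxp3Cre and 8 lower (28.6% and 34.9% of all genes), with a median log2 ratio of -1.98, against -0.15 over all genes. Ctsb was 6.89-fold lower (6.12 to 7.79), and Cd63, Ctsl and March8 were listed at 0 in the library labelled Med23 KO, against 32.7, 15.3 and 12.3 scaled counts in 10-month Foxp3Cre. Macrophages express several of these genes, and the sum of the macrophage and monocyte markers was lower in that library too, as given above. The part of these cells in the counts was not tested. Against LN, 9 of 13 were higher in obese and 2 lower (41.7% and 23.7% of all genes), 5 of 11 were higher in lean and 3 lower (37.6% and 32.1%), and 6 of 12 were higher in 10-month Foxp3Cre and 2 lower (34.3% and 29.8%). In 10-month Foxp3Cre against lean, 5 of 12 were higher and 3 lower (28.4% and 32.7%).

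Costimulatory genes of antigen-presenting cells gave 5 of 10 higher in obese than in lean and 0 lower (34.0% and 18.6% of all genes), with a median log2 ratio of 0.95. Cd83, a surface protein that protects class II from March1, was 3.29-fold higher in obese (3.12 to 3.47), and Cd86, a ligand of CD28 and CTLA-4, was 2.52-fold higher (2.32 to 2.74). In the library labelled Med23 KO 0 of 8 were higher than in 10-month Foxp3Cre and 5 lower (28.6% and 34.9% of all genes), with a median of -1.56. Pdcd1lg2, a ligand of PD-1, was lower by 4.11-fold (3.59 to 4.71). Cd80, another ligand of CD28 and CTLA-4, was listed at 0 in the library labelled Med23 KO, against 38.4 scaled counts in 10-month Foxp3Cre. Several of these genes are also expressed by activated T cells. Against LN, 6 of 10 were higher in obese and 0 lower (41.7% and 23.7% of all genes), 2 of 8 were higher in lean and 1 lower (37.6% and 32.1%), and 4 of 9 were higher in 10-month Foxp3Cre and 2 lower (34.3% and 29.8%). In 10-month Foxp3Cre against lean, 3 of 9 were higher and 2 lower (28.4% and 32.7%).

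The regulators of class II transcription gave counts in both directions in all 6 comparisons. Of 15 measured, 3 were at least 2-fold higher in obese than in lean and 5 lower (34.0% and 18.6% of all genes), with a median log2 ratio of -0.46. In the library labelled Med23 KO 2 of 14 were higher than in 10-month Foxp3Cre and 5 lower (28.6% and 34.9%), with a median of -0.80. Rfx5, a subunit of the factor that binds the X box, was listed at 0 in the library labelled Med23 KO and 10-month Foxp3Cre and was at 1.07 CPM in obese, 1.17 in lean and 2.68 in LN. Rfxap, another subunit, was listed at 0 in the library labelled Med23 KO and was at 28.1 CPM in 10-month Foxp3Cre, 16.9 in obese, 49.8 in lean and 58.3 in LN. Spi1, which encodes the myeloid and B cell factor PU.1, was at 6.42 CPM in 10-month Foxp3Cre and 33.7 CPM in obese and listed at 0 in the other 3. Irf4, a factor of activated lymphocytes and of adipose Tregs, was at 17.6 CPM in the library labelled Med23 KO, 223 in 10-month Foxp3Cre, 53.4 in obese, 285 in lean and 7.43 in LN. Against LN, 3 of 14 were higher in obese and 3 lower (41.7% and 23.7% of all genes), 5 of 14 were higher in lean and 2 lower (37.6% and 32.1%), and 5 of 15 were higher in 10-month Foxp3Cre and 3 lower (34.3% and 29.8%). In 10-month Foxp3Cre against lean, 1 of 15 was higher and 3 lower (28.4% and 32.7%).

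MHC class I genes, which present peptides to CD8 T cells and are expressed by nearly all cells, had more members lower than higher in each of the 3 adipose libraries set against LN. Of 16, 0 were at least 2-fold higher in obese and 6 lower (41.7% and 23.7% of all genes), 1 was higher in lean and 9 lower (37.6% and 32.1%), and 2 were higher in 10-month Foxp3Cre and 5 lower (34.3% and 29.8%). The median log2 ratio over LN was -0.41 in obese, -1.01 in lean and -0.03 in 10-month Foxp3Cre, where the share that was lower is near that of all genes. Psmb9, an immunoproteasome subunit gene, was 4.16-fold lower in obese (3.83 to 4.51), 6.39-fold lower in lean (5.82 to 7.02) and 5.92-fold lower in 10-month Foxp3Cre (5.41 to 6.47). In obese against lean 2 of 16 were higher and 0 lower (34.0% and 18.6% of all genes), and in 10-month Foxp3Cre against lean also 2 and 0 (28.4% and 32.7%). In the library labelled Med23 KO, 3 were higher than in 10-month Foxp3Cre and 3 lower (28.6% and 34.9%), with Tap1, a peptide transporter gene, 3.13-fold higher (2.87 to 3.41) and Pdia3, a chaperone gene, 3.90-fold lower (3.59 to 4.25).

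Interferon gamma is the known inducer of Ciita in many cell types. Of 17 genes of its signalling, 2 were at least 2-fold higher in obese than in lean and 1 lower (34.0% and 18.6% of all genes), with a median log2 ratio of 0.23. In the library labelled Med23 KO, 3 of 16 were higher than in 10-month Foxp3Cre and 3 lower (28.6% and 34.9%), with a median of -0.31. Ifng itself was at 106 CPM in the library labelled Med23 KO, 138 in obese, 118 in lean and 131 in LN and listed at 0 in 10-month Foxp3Cre. Against LN, 5 of 17 were higher in obese and 2 lower (41.7% and 23.7% of all genes), 5 of 17 were higher in lean and 3 lower (37.6% and 32.1%), and 5 of 16 were higher in 10-month Foxp3Cre and 3 lower (34.3% and 29.8%). In 10-month Foxp3Cre against lean, 2 of 17 were higher and 3 lower (28.4% and 32.7%).

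Across the 5 libraries, Pirb, Fcer1g, Grk3, B4galt6, Gzma, Lifr, Cd209a, Ptgs2, Adgrg6 and Clec10a had the profiles nearest to the mean of Cd74, H2-Aa, H2-Ab1 and H2-Eb1. Likeness was the Euclidean distance between centred log2(CPM + 1) profiles, ranked over 11223 genes at 5 CPM or more in at least 1 library, and the 10 distances ran between 0.843 for Pirb and 1.07 for Clec10a. Fcer1g, the common signalling chain of activating Fc receptors, was at 10.4 CPM in the library labelled Med23 KO, 22.1 in 10-month Foxp3Cre, 625 in obese, 109 in lean and 5.88 in LN. Pirb, an inhibitory receptor of myeloid and B cells, was listed at 0 in the library labelled Med23 KO and LN and was at 2.80 CPM in 10-month Foxp3Cre, 74.2 in obese and 13.5 in lean. Cd209a and Clec10a, both in the dendritic cell list, encode lectins of myeloid cells. None of the other genes named is in a marker list used here. Grk3, B4galt6, Gzma, Lifr, Ptgs2 and Adgrg6 are not described, so the genes described are a part of a mixed list. Which cells gave these profiles was not tested. All of the 10 but Fcer1g were at 0 CPM in the library labelled Med23 KO and LN. Gzma, Lifr, Cd209a, Ptgs2, Adgrg6 and Clec10a were at 0 CPM in 10-month Foxp3Cre too. Their values there are at the floor, unlike those of Cd74 and the classical chains. With 5 libraries that also differ in sex-linked genes and Gapdh, many profiles are near one another, and the ranking is a description. Among the 10 class II genes, the distance to the same mean was 0.561 for H2-Aa, 0.990 for H2-Eb1, 1.54 for H2-Ab1 and 1.59 for Cd74, which form it. H2-Ab1 and Cd74 thus lay farther from their mean than the 10 genes named. The distance was 2.79 for H2-DMb1, 3.15 for Ciita, 4.71 for H2-DMa, 5.69 for H2-Ob, 7.39 for H2-Oa and 9.05 for H2-DMb2.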

How the data were processed

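Per the labels' protocols, Tregs were sorted, RNA was extracted with Trizol and libraries were made with an Illumina TruSeq kit. Per the submitters' processing notes, the tools were TopHat2 2.0.9 and Bowtie2 2.0.6 and the build was mm8. The sources used here give no counter, annotation, strand setting or scaling. The authors deposited 3 tables of 2 libraries each, whose columns are a scaled read count per gene and library (the signal used here), the authors' log2 fold change with its p-value and q-value, and a mark. The LN library is in 2 of the tables. The authors' deposited p-values and q-values compare pairs of libraries, and none is printed. Each listed scaled count was a whole multiple, within 0.01 read, of 1 step per library, which gave the reads. Values under 1 are listed as 0, so no count model was fitted.

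Gene IDs were given symbols through GENCODE M21, which named 98.8% to 99.3% of the IDs of a table. Ratios within a table used the scaled counts, and ratios across tables used CPM, each column rescaled to a sum of 1000000. Counts of genes at least 2-fold higher or lower used log2((value + 1)/(value + 1)) over genes with a value of 1 or more in either library compared. This scale understates the ratio of low genes. Printed folds are without the added 1, with exact 95% Clopper-Pearson intervals conditional on the reads of both libraries, and levels have exact 95% Poisson intervals. All intervals cover counting error only, because 1 library per group shows no spread between mice or libraries. They take each read as a separate molecule. Reads without molecular identifiers may be copies of the same molecule, so the intervals may be too narrow even for counting error. No test was made, since each group has 1 library.

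The genes and lists were chosen with earlier results of these data known. Named genes are the 10 class II genes, among the 4 largest ratios of each list in a comparison and members whose role is described, Med23, Foxp3, Xist, Ddx3y and Gapdh, and the 10 nearest profiles. Alternatives were another added value (0.5 or 5), centring, another scaling, another filter on low values, a 3-fold threshold, H2-DMb1 and H2-DMb2 summed, and Cd74 as denominator. Promoters were read from a RefSeq table of GRCm38.p6, while gene coordinates of the deposited values were not used. Calculations used scipy 1.17.1, pandas 2.3.3, numpy 2.4.6 and matplotlib 3.10.9 under Python 3.11.15 and were tested on simulated data.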

Additional observations from a re-analysis of the deposited data

Results flagged for a closer look

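A pair of genes went one way in the obese library and the other way in the 10-month Foxp3Cre and lean libraries, each set against the same LN library. H2-DMa was 1.51 times the LN level in obese, against 0.091 times in 10-month Foxp3Cre and 0.244 times in lean. H2-Ob was 1.66 times the LN level in obese, against 0.655 times in 10-month Foxp3Cre and 0.619 times in lean. Ratios for 10-month Foxp3Cre are on CPM and the others on scaled counts. Over all genes the median log2 ratio of obese over LN was 0.44. After centring on that median, the log2 ratio in obese was 0.14 for H2-DMa, in place of 0.59. For H2-Ob it was 0.24, in place of 0.69. The library labelled Med23 KO was not set against LN, and it had H2-DMa listed at 0 and H2-Ob at 70.3 CPM, against 78.6 and 12.2 CPM in LN. With 1 library each, these differences between libraries were not tested, and all of them share the LN library.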

How the results depend on the processing

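Of 92 alternative counts of class II genes at least 2-fold higher or lower, 82 stayed within 1.5 times the reported count and 10 did not. The 82 include the counts with no filter on low values, which could not differ from those reported. With 1 added, values under 1 in both libraries cannot differ by 2-fold. In 10-month Foxp3Cre against LN, genes higher numbered 1 in place of 2 with the 3-fold threshold and with 5 added to each value. In 10-month Foxp3Cre against lean, they numbered 1 in place of 2 with both of these settings and with H2-DMb1 and H2-DMb2 summed. In obese against LN, genes lower numbered 1 in place of 2 with that pair summed. In obese against lean, they numbered 0 in place of 1 with the pair summed, the 3-fold threshold, a filter at 5 and 5 added. Alternative log2 ratios of single class II genes, with another added value, centring or another scaling, numbered 206. Of these, 36 moved by more than the counting error of the ratio. The other 170 moved by no more, or had 0 or no value in 1 library and so no such error. Ratios of that last kind could not count as moved, and some shifted with 5 added. Ciita in obese against lean went from 2.40 to 0.89, and H2-Oa in lean against LN from -5.49 to -3.29. None of the ratios past 2-fold changed sign, and H2-Ob in 10-month Foxp3Cre against lean, at -0.05, was at 0.12 after centring.

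The change of the DM and DO genes relative to the classical chains was no longer seen in 10-month Foxp3Cre against lean when taken relative to Cd74, with a log2 value of -0.13 in place of 1.41 and a counting interval, -0.33 to 0.07, that includes 0. Relative to Cd74 it was -2.46 in place of -3.25 in 10-month Foxp3Cre against LN, -2.33 in place of -4.66 in lean against LN, and -2.96 in place of -5.22 in obese against LN. The cause was not tested. The other scaling was not run for 10-month Foxp3Cre against LN or lean, since those tables share no library. No paired analysis was possible because each group has 1 library, and for the same reason none could be left out. Depth limits the genes with few reads, such as H2-DMb2 in lean (11 reads), Ciita in obese (32) and H2-Ab1 in the library labelled Med23 KO (37).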

Other observations

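Among the T cell receptors for class II, Lag3 was listed at 0 or had no value in all 5 libraries. Cd4 was at 133 CPM in the library labelled Med23 KO, 121 in 10-month Foxp3Cre, 198 in obese, 101 in lean and 96.5 in LN. Of the other genes of the class II region, H2-Eb2, H2-Pa and Btnl2 were listed at 0 or had no value in all 5 libraries. Ifi30, a reductase that opens disulfide bonds of antigens in endosomes, was at 5.22 CPM in the library labelled Med23 KO, 17.4 in 10-month Foxp3Cre and 13.8 in LN and listed at 0 in obese and lean. Lgmn, an asparagine-specific protease of endosomes, was listed at 0 in the library labelled Med23 KO and was at 4.25 CPM in 10-month Foxp3Cre, 103 in obese, 38.2 in lean and 3.20 in LN.

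Markers of stromal cells, which can express class II after interferon, were unequal too. The fibroblast gene Dcn was listed at 0 in the library labelled Med23 KO and LN and was at 48.0 CPM in 10-month Foxp3Cre, 8.27 in obese and 791 in lean. All 7 measured fibroblast and mesothelial markers were lower in obese than in lean by 2-fold or more, beside 18.6% of all genes. The part of stromal cells in the class II levels was not tested. Fabp4, a fatty acid binding protein gene of adipocytes and macrophages, was at 13.5 CPM in the library labelled Med23 KO, 33.2 in 10-month Foxp3Cre, 294 in obese and 13.7 in lean and listed at 0 in LN.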
